A study of Saccharomyces cerevisiae with 14 samples.

Results

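Strain 76 is a TAQed diploid of Saccharomyces cerevisiae whose genome was compared with that of its parent, WT14, by array comparative genomic hybridisation (aCGH). It was represented by 1 array of the 14 in the series, found by its title. The other 13 arrays held WT14 against itself and 12 further TAQed strains. On every array the strain carried Cy5 and WT14 carried Cy3. With 1 array per strain and the dyes never swapped, the values of strain 76 are unreplicated.

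WT14 is a fused diploid of YPH499, a haploid derived from S288C, and S799, a haploid derived from SK1, both MATa. All TAQed strains came from this fusion after TaqI had been expressed with Cu2+ and heat-activated at 42 °C for 30 min. The labels give the same treatment text for WT14, whereas the study's methods treat it as the parental control. TaqI is a bacterial restriction enzyme that cuts a short sequence found throughout the genome, and a heat pulse makes it cut inside living yeast. Strain 76 was a single isolate, sequenced and arrayed because of altered morphology among clones with small colonies, so it is not a random draw from treated cells. All strains were grown in YPD for 24 h at 30 °C, and 100 ng of genomic DNA was labelled.

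In aCGH the Cy5/Cy3 ratio of a probe follows the number of copies of its target in the strain relative to WT14. In a diploid, going from 2 copies to 1 gives a log2 ratio of -1, and going from 2 to 3 gives 0.58. WT14 carries a pair of diverged homologues of each chromosome, and a probe that matches one homologue better than the other reports mainly on the better match. Broken chromosomes can be joined to another chromosome, copied from a homologue or lost from the break outward. Each leaves a different trace in such a profile.

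Signal on the strain 76 array was well above background in both channels for 99.8% of spots. Its median Cy5 signal was 216.5 and its median Cy3 signal 160.0, over local backgrounds of 12 and 11. The noise between neighbouring probes had an SD of 0.12. On the WT14 array it was 0.11, and the 13 others spanned 0.11 to 0.19. The array of strain 81 stood apart, with a median Cy5 signal of 25 and 80.4% of spots well above background in both channels. The 14 arrays lay on 2 slides, and strain 76 shared its slide with WT14 and strains 1, 73, 81 and 83. The other slide held strains 119, 117, 113, 107, 106, 101, 97 and 84. Values below are log2 ratios centred on the median of their array, with probe positions in build sacCer2 as the array files give them. No annotation of that build was used here, so genes were not placed on the stretches below.

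Strain 76 differed from its parent in 3 stretches of at least 20 kb. A 74.7 kb stretch of the left arm of chromosome VI and a 307 kb stretch of the right arm of chromosome VIII were gained, and a 63.4 kb stretch near the left end of chromosome XII was lost. The gained DNA amounted to 382 kb, or 3.17% of the probed genome, and the lost DNA to 0.526%. On the WT14 array 0 stretches of this size were called with the same settings, and at most 1 under the alternatives. The 13 chromosomes other than VI, VIII and XII had medians between -0.03 and 0.06. These stretches were chosen from the same array, so their levels are descriptions and were not tested.

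The profile of strain 76 was divided into 67 segments, of which 30 lay above 0.3 or below -0.3 (24 above, 6 below). Most of these were short: 21 lay within 20 kb of a chromosome end and were under 20 kb long. On the WT14 self-array, 21 of the 30 had a counterpart called in the same direction, which leaves 9 without. A median above all 13 other arrays was found for 3 of the 67 segments (4.48%), and one below all of them for 5 (7.46%). These 8 segments lay on chromosomes VI, VII, VIII and XII and include the 3 large stretches. Any 1 of 14 arrays is the highest or lowest in some segments, so these shares alone do not set strain 76 apart. The segment of chromosome XII from 77678 to 250627, for example, was lowest by only 0.01.

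The gained stretch of chromosome VI ran from 32247 to 106965 and held 379 probes. On the standard yeast map the left arm of this chromosome carries ACT1, the actin gene, and TUB2, the beta-tubulin gene, although neither was placed relative to the stretch. Its median was 0.54 in strain 76, with the middle 50% of probes between 0.45 and 0.64. The other 13 arrays lay between -0.26 and 0.03, with WT14 at 0.01, so strain 76 stood above all of them. Of the 379 probes, 353 exceeded 0.3 and 0 fell below -0.3. Over all nuclear probes, 6.01% exceeded 0.3 in strain 76 and 2.72% on the WT14 array, but the stretch was chosen on this measure and its count carries no further weight. If WT14 had 2 copies, the median of 0.54 corresponds to 2.92 copies.

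Both limits of this gain were abrupt. On the left the level changed between a probe ending at 31933 and the next starting at 32247. The median over 20 kb rose from -0.09 (95 probes) to 0.52 (100 probes), a step of 0.61. The same step on the other arrays was between -0.10 and 0.02. On the right the change fell between probes at 106965 and 107230, where the median went from 0.57 to -0.07. The step was -0.64, against -0.05 to 0.01 elsewhere. The 5 probes just inside this limit lay between 0.42 and 0.55, and the 5 just outside between -0.23 and 0.14, so they did not overlap. At the left limit the 5 nearest probes on each side did overlap (-0.23 to 0.18 outside, 0.04 to 0.56 inside), which places that limit less sharply.

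From 107230 to 269940, the rest of chromosome VI had a median of -0.04 over 814 probes, inside the range of the other arrays (-0.25 to 0.02). The gain therefore had unchanged DNA to its right and, as a median, also to its left.

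**Figure D1:**
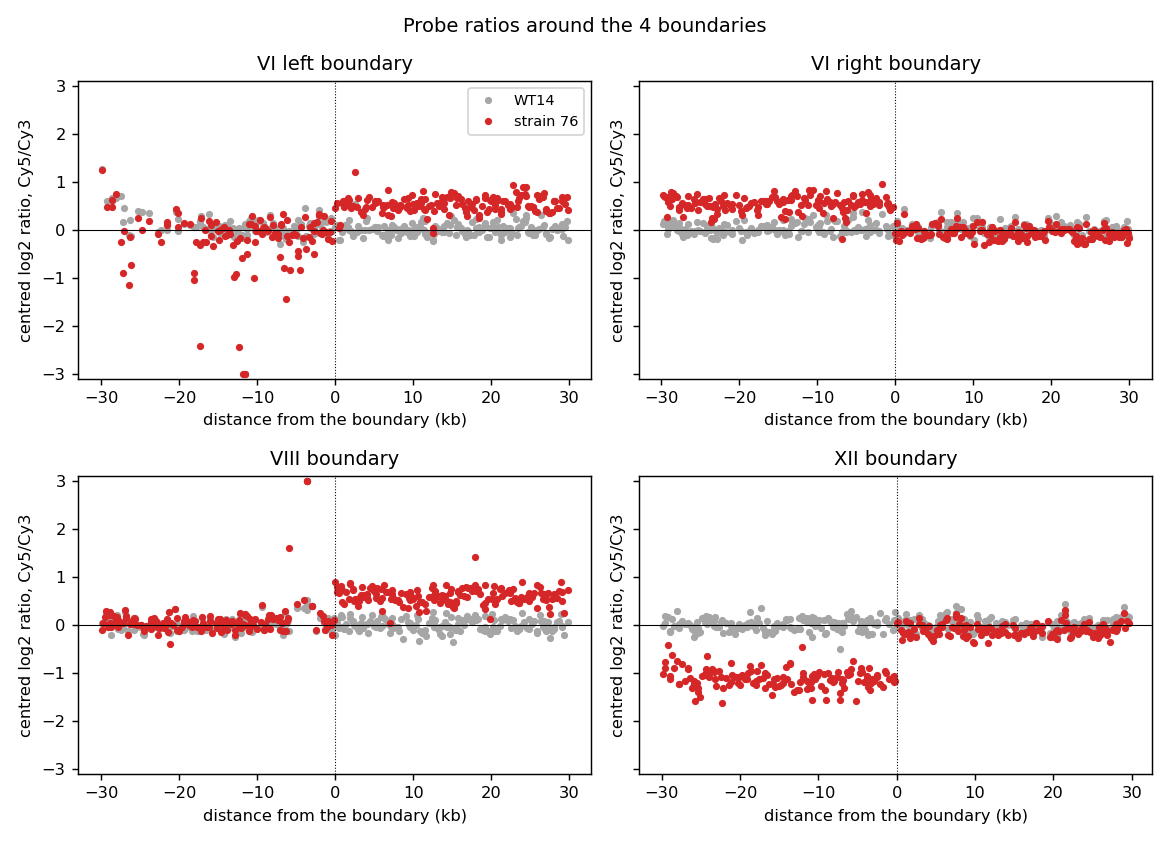
Centred log2 ratios of single probes (y axis) by distance from each of the 4 boundaries in kb (x axis), in strain 76 (red) and WT14 (grey), with values beyond 3 in size drawn at 3. Strain 76 changes level with steps of 0.61, -0.64, 0.56 and 1.00, while WT14 stays near 0. At the left boundary of the chromosome VI gain the 5 nearest probes on each side overlap, so that change is less sharply placed.

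The stretch to the left of the chromosome VI gain, from 4824 to 31933, behaved differently from the rest of the chromosome. Its median of -0.09 lay within the range of the other arrays (-0.30 to 0.11), but its probes were widely scattered. Relative to the median of the other 13 arrays, the 10th and 90th percentiles of its 111 probes were -0.83 and 0.18, a span of 1.01. On the other arrays this span was 0.15 to 0.46, the highest being the dim array of strain 81, and on the WT14 array it was 0.15. The scatter went in a single direction. In strain 76, 20 of the 111 probes lay more than 0.4 below the median of the stretch and 0 lay that far above it. Over the whole nuclear genome, 0.65% of probes in strain 76 were more than 0.4 below the other arrays. This stretch and the limit of 0.4 were chosen after the values had been seen.

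The 20 low probes were spread from 4.51 to 27.4 kb left of the gain, between probes at an ordinary level. The remaining 91 probes had a median of -0.03 in strain 76 and 0.03 on the WT14 array. The low probes had a median of -0.95 in strain 76 and 0.05 on the WT14 array. In 19 of the 20, strain 76 was below all 13 other arrays. Ratios between -1.5 and -0.2 were found for 15 of them, of which 11 were within 0.3 of -1, the value of a lost copy.

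The other 5 low probes fell below -2. The probe at 14890 to 14937 had a ratio of -2.42, against -0.12 to 0.25 on the other arrays, and the probe at 19913 to 19972 had -2.44, against -0.33 to 0.17. For the remaining 3, the Cy5 signal was not well above background, while Cy3, from WT14, was bright. The ratio is then only a bound, set by the lowest Cy5 signal on the array that was well above background. By that bound strain 76 was at least 23.2-fold lower than WT14 at 20488 to 20547, at least 47.2-fold lower at 20710 to 20768, and at least 67.9-fold lower at 20722 to 20781. The last of these overlaps its neighbour by most of its length, so they are not separate measurements. On the other arrays the ratios of these 3 probes lay between -0.50 and 0.23. DNA matching them was thus detected in WT14 and on the other arrays but was not well above background in strain 76, in a stretch whose median copy number was unchanged.

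**Figure D2:**
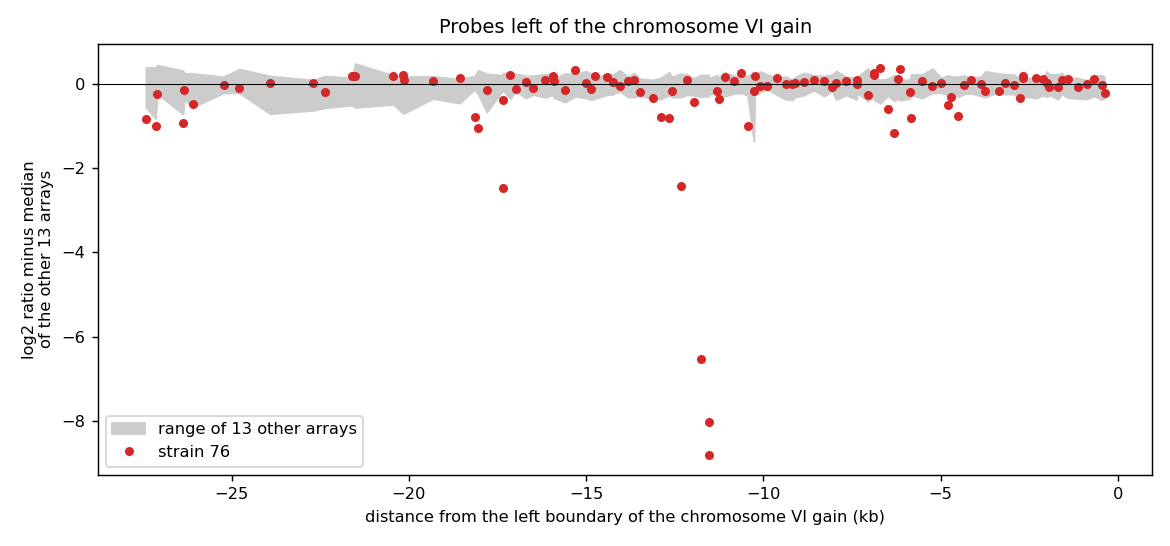
Log2 ratio minus the median of the other 13 arrays (y axis) for the 111 probes left of the chromosome VI gain, by distance from its left boundary in kb (x axis). Red points are strain 76 and the grey band is the range of the other 13 arrays, each treated in the same way. In strain 76, 20 probes lie more than 0.4 below the median of the stretch, and 0 lie that far above it.

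Low probes among ordinary ones were rare elsewhere in strain 76. For this count each ratio was taken relative to the median of the 13 other arrays. The nuclear genome was cut into 1177 consecutive windows of 50 probes. In 6 of them (0.51%) at least 5 probes were by this measure more than 0.4 below the median of the window. In 4 of the 6 windows the count came with an edge of a gained or lost stretch or of the low run on chromosome VII described further on. The other 2 were both on chromosome VI, from 1 to 18660 with 8 low probes and from 18770 to 27964 with 12. On the WT14 array both held 0 low probes. By the same rule 2 windows were found on the WT14 array, 1 on chromosome III and 1 on chromosome V. There most TAQed strains had the short stretches of very high ratio described further on. The ratios of WT14 itself in those stretches were not low, with medians of -0.07 and 0.14. It was low only relative to the other arrays. On other arrays low probes in the stretch from 4824 to 31933 were seen in strain 1 (8 probes), strain 83 (4) and strain 81 (2), and in none of the other 10. Strains 1, 81 and 83 all shared the slide of strain 76. WT14 and strain 73, on that slide too, had none, nor did any array of the other slide. A slide effect was not tested. All 4 of strain 83 were also low in strain 76, but none of the 8 in strain 1 or the 2 in strain 81 were.

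The gained stretch of chromosome VIII ran from 218188 to 525412 and held 1599 probes. The right arm of this chromosome carries CUP1, the copper metallothionein locus, on the standard map, although it was not placed relative to the stretch. The median was 0.58 in strain 76, with the middle 50% of probes between 0.49 and 0.69. Of the 1599 probes, 1550 exceeded 0.3 and 0 fell below -0.3. Over all nuclear probes, 6.01% exceeded 0.3 in strain 76 and 2.72% on the WT14 array. Here too the count follows from how the stretch was chosen. WT14 was at 0.00, and among the other strains the level lay between -0.08 and 0.12 except in strain 119, which had lost chromosome VIII and stood at -1.03. This median matches the value for 3 copies where WT14 has 2.

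To the left, chromosome VIII was unchanged from 5850 to 211952, with a median of 0.00 over 1054 probes. The gain began between a probe ending at 218026 and the next starting at 218188. The 5 probes before this limit lay between -0.21 and 0.09 and the 5 after it between 0.67 and 0.91, a clean separation over 161 bases. The median over 20 kb rose from 0.05 to 0.61, a step of 0.56. On the other arrays it was -0.06 to 0.02.

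A few kilobases before the limit lay a short stretch with raised ratios, from 211926 to 215251, which the joining rule attached to the gain. Between it and the gain, 11 probes from 215647 to 218026 had a median of 0.02 and were therefore not gained. The short stretch is shared with most TAQed strains and is described further on.

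The right end of the gain was less well defined. The called stretch stopped at 525412, where the probe spacing widened from a median of 192 bases to 456.5. From 525840 to 556545, 55 probes had a median of 0.23, above all 13 other arrays (-0.72 to 0.14). Probe by probe, however, strain 76 exceeded WT14 by a median of only 0.06, and by more than 0.3 in 4 of the 55. The outermost 10 probes, from 556508 to 562184, had 0.75 in strain 76 and 0.80 in WT14. The end of the chromosome was thus close to WT14, and whether the gain reached it depends on the segmentation settings.

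Strain 119 had lost chromosome VIII, and the probes of the gained stretch were sorted by their ratio in that strain. Which homologue each probe matches was not tested. In the gained stretch 9 probes had a ratio below -3 in strain 119, between 225163 and 523656, and 7 of the 9 were not well above background in Cy5 in strain 119. In strain 76 these 9 probes had a median of -0.03 (lowest -0.16, highest 0.16), and 0 of the 9 exceeded 0.3. The WT14 array had -0.03, and the other 12 arrays lay between -0.18 and 0.08. These 9 probes thus stayed near the level of the other arrays, whereas the whole stretch, chosen for its raised level, had a median of 0.58.

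Up to a ratio of -0.5 in strain 119, the strain 76 ratio rose from class to class, and it was lower again in the last class. For probes from -3 to -2 in strain 119 it was 0.32 (20 probes), from -2 to -1.4 it was 0.40 (133), and from -1.4 to -1.2 it was 0.49 (229). For those from -1.2 to -1 it was 0.57 (518), from -1 to -0.8 it was 0.66 (560), and from -0.8 to -0.5 it was 0.77 (123). The 7 probes above -0.5 had a median of 0.43 (lowest 0.34, highest 1.41). Part of this order is also present where chromosome VIII was unchanged. Left of the gain, strain 76 ran from -0.12 in the lowest class (21 probes) through -0.01, -0.06, -0.08, -0.01 and 0.07 to 0.17 in the class from -0.8 to -0.5 (59 probes), and to 0.34 above -0.5 (10 probes). On the WT14 array the lowest class had -0.09 and the class from -0.8 to -0.5 had 0.16.

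The medians of the unchanged side were then subtracted class by class. The gained stretch exceeded the left side by 0.09 in the class below -3, 0.33 from -3 to -2, 0.46 from -2 to -1.4 and 0.56 from -1.4 to -1.2. In the classes from -1.2 to -0.5 it was 0.58, 0.58 and 0.60, and above -0.5 it was 0.09. On the WT14 array the first 7 differences lay between -0.03 and 0.06, and that above -0.5 was -0.29. Below -3 the difference in strain 76 was thus close to that on the WT14 array, which was 0.06. Above -0.5 it was equally small, but the WT14 array was lower there, and the left side held other probes. In the gained stretch itself, this last class had 0.43 in strain 76 and 0.06 on the WT14 array. Both extreme classes rest on 10 or fewer probes of the gained stretch. Both strains share the WT14 reference, and the classes were chosen after the values had been seen, so this order is a description.

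**Figure D3:**
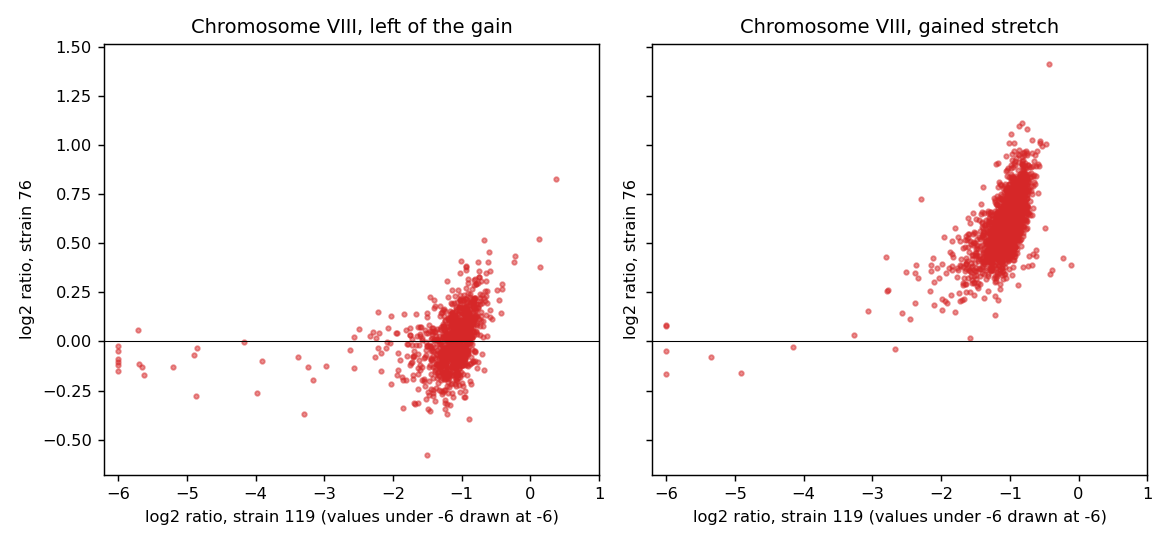
Log2 ratio in strain 76 (y axis) against strain 119 (x axis), 1 point per probe of chromosome VIII, left of the gain (left panel) and in the gained stretch (right panel). Values under -6 are drawn at -6. In the gained stretch most points lie above 0.3 in strain 76, but the 9 probes below -3 in strain 119 stay between -0.16 and 0.16.

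The lost stretch of chromosome XII ran from 14056 to 77503 and held 330 probes. Its median was -1.10 in strain 76, with the middle 50% of probes between -1.22 and -0.99. The other arrays lay between -0.14 and 0.06, with WT14 at 0.02, except strain 73, which had gained chromosome XII and stood at 0.56. Of the 330 probes, 328 fell below -0.3, a limit passed by 1.84% of all nuclear probes in strain 76 and 0.515% on the WT14 array. As for the gains, this count follows from how the stretch was chosen. The median corresponds to 0.936 copies if WT14 had 2.

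The inner limit of the loss fell between probes at 77503 and 77678. The median over 20 kb went from -1.13 to -0.13, a step of 1.00, and the step on the other arrays was -0.03 to 0.04. The last 5 probes of the loss lay between -1.18 and -1.06, and the first 5 beyond it between -0.31 and 0.06. Right of it, from 77678 to 250627, strain 76 had -0.08 over 873 probes. This was below all 13 other arrays, but only by 0.01 from the nearest, at -0.07.

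Within the lost stretch the ratios were even. The lowest single probe had -1.72 and the highest -0.26, and the 10th and 90th percentiles were -1.31 and -0.87. None of the 330 probes fell below -2, and a count of 0 allows a share of up to 0.909% (3 probes of 330). In the other lost stretches of the series with a median below -0.8, the share below -2 ran from 0% (491 probes on chromosome XV of strain 117, lowest -1.71) to 3.13% (chromosome V of strain 113). Chromosome VIII of strain 119 had 2.88% (95% exact interval 2.29 to 3.58). For chromosome V of strain 113 the interval was 2.51 to 3.84. The same exact interval for strain 76 reached up to 1.11%. The interval for chromosome XIII of strain 101 began at 1.01%. A difference between strains was not tested. Probes are not independent molecules or replicates, so these limits cover counting error only and cannot be used to compare strains.

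The outermost probes of the chromosome did not show the loss, but whether the end itself was kept was not tested. From 158 to 13829, 23 probes had a median of 0.69 in strain 76 against 0.76 on the WT14 array and 0.08 to 1.22 on all 13. Many chromosome ends had raised ratios on the WT14 self-array too. These end probes were sparse, and subtelomeric DNA is repeated between chromosomes, so they are poor markers of a single end.

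**Figure D4:**
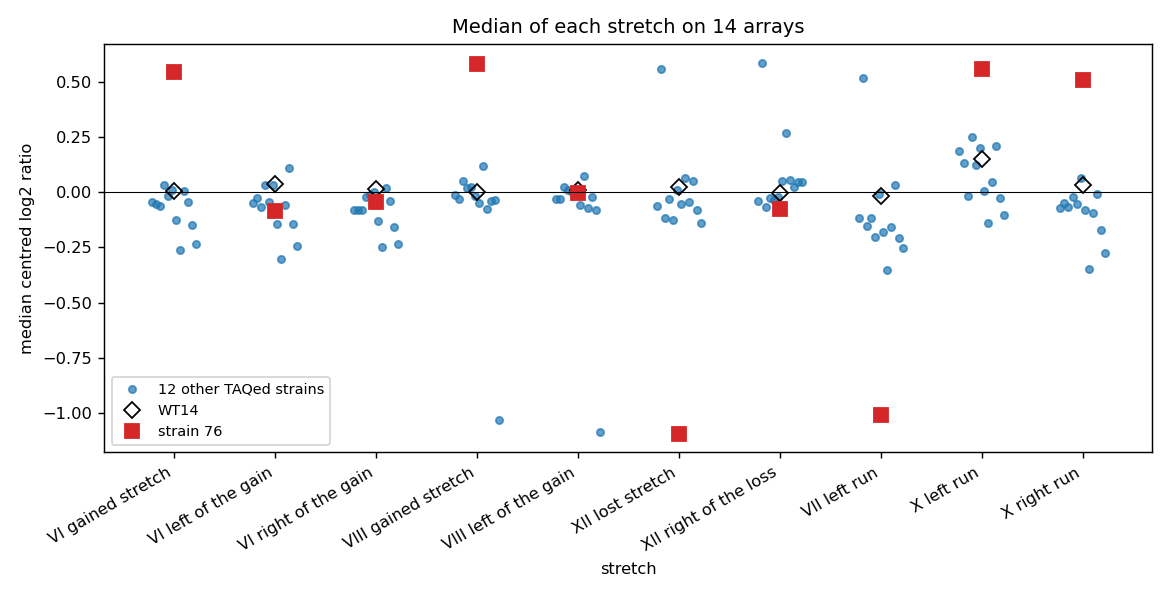
Median centred log2 ratio (y axis) of 10 stretches (x axis) on the 14 arrays. Red squares are strain 76, diamonds WT14 and blue points the 12 other TAQed strains. Strain 76 stands above all other arrays in the VI and VIII gained stretches and in both runs on X, and below all in the XII lost stretch and the VII left run.

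A shorter run of low ratios lay at the left end of chromosome VII. From 1277 to 6282, 25 probes had a median of -1.01 in strain 76. All 25 fell below -0.3, against 1.84% of all nuclear probes, a count that follows from how the run was picked. The WT14 array had -0.02. The other strains lay between -0.35 and 0.03 except strain 73, which had 0.52. Strains 76 and 73 were therefore the extremes of this run, as they were of the lost stretch of chromosome XII, where strain 76 had -1.10 and strain 73 had 0.56. Next to the run the level was normal: from 6523 to 266073 on chromosome VII, strain 76 had -0.05 over 1299 probes. The run was picked from the difference between strain 76 and the other arrays, and only strains 76 and 73 stood apart. With no probe sequences or genome of this build used here, it was not tested whether these probes also match chromosome XII.

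Over the nuclear genome, 264 probes (0.447%) lay more than 1 below the other arrays in strain 76. Of these, 243 were in the lost stretch of chromosome XII, 12 in the chromosome VII run and 8 left of the chromosome VI gain, which leaves 1 elsewhere.

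**Figure D5:**
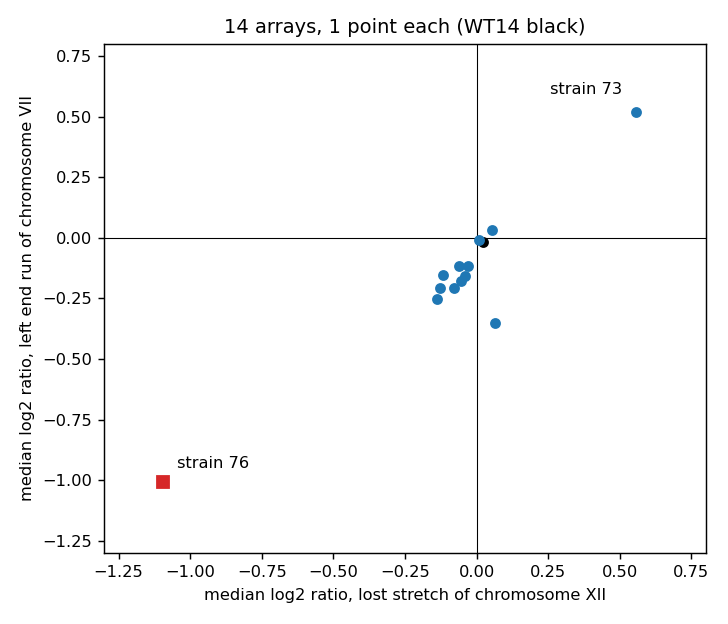
Median log2 ratio of the run at the left end of chromosome VII (y axis) against that of the lost stretch of chromosome XII (x axis), 1 point per array, with strain 76 in red and WT14 in black. Strain 76 is lowest in both (-1.01 and -1.10) and strain 73 highest in both (0.52 and 0.56).

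A pair of very short runs on chromosome X went the other way. From 27045 to 28570, 7 probes had a median of 0.56 in strain 76. WT14 had 0.15, and the 13 other arrays ran from -0.14 to 0.25. From 727630 to 728369, 5 probes had 0.51, against 0.03 and -0.35 to 0.07. In both, strain 76 was above every other array. It exceeded the median of the other arrays by 0.44 in the left run and 0.58 in the right run. For the gains on chromosomes VI and VIII this difference was 0.59 and 0.60. The runs lay toward opposite ends of the chromosome, and the rest of chromosome X was unchanged, with a median of -0.02. They rest on 12 probes in all and were picked from their values.

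Strain 76 also carried 4 short stretches of very high ratio that were present in most TAQed strains. Their medians were 8.10 on chromosome III (91376 to 92353, 6 probes), 5.97 on chromosome V (116139 to 116887, 6 probes), 2.76 on chromosome VIII (212231 to 214649, 6 probes) and 7.48 on chromosome XV (721715 to 722554, 5 probes). The WT14 array had -0.07, 0.14, 0.36 and 0.06, and strain 83 had -0.19, 0.12, 0.51 and 0.16. In the 11 other TAQed strains the medians were far higher than in WT14, and at all 4 stretches only strains 84 and 113 exceeded strain 76. The stretch on chromosome III, for example, had 8.53 in strain 84 and 9.02 in strain 113. The TAQed cells carried a TaqI expression vector, and its sequence was not compared with these probes here. The stretch on chromosome VIII lies a few kilobases from the boundary of the gain, but the same stretch was raised in strains with no change on that chromosome.

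Near the ribosomal RNA gene array of chromosome XII, whose copy number varies readily in yeast, strain 76 had a median of 1.82 over 21 probes from 451863 to 467825. The WT14 array had 0.96 and the other arrays 0.56 to 1.92, so that strain 76 was higher than 12 of the 13. Immediately to the right, from 469004 to 488773, it had -0.39 over 23 probes, against -0.44 in WT14. The high level fell within the range of the other arrays, and both stretches were also called on the WT14 array.

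Mitochondrial DNA, which is present in many copies and can be lost after stress, was retained in strain 76. Its 363 probes had a median of 0.71 in strain 76 and 0.09 on the WT14 array. The other arrays had a median of 0.27 and ran from -8.56 in strain 84, followed by -0.60, up to 0.80, and 11 of the 13 were lower than strain 76. The difference from the 13 others did not pass a two-sided exact permutation test (p = 0.286). With 1 array against 13, the smallest p this test can give is 0.0714, so it could not have passed 0.05. Without strain 84, p was 0.385.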

How the data were processed

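Genomic DNA of 13 TAQed strains and WT14 was hybridised against WT14 on custom Agilent tiling arrays. Per the file headers, the authors deposited spot tables made with Feature Extraction 11.0.1.1, whose processed intensity had been corrected for background and put through a linear dye normalization. The series matrix they deposited holds the same log10 ratios as the spot tables for 47691 spots (largest difference 5.0e-08). Here, the log2 ratio of processed Cy5 over Cy3 was computed per spot. Control spots (997) and outlier-flagged spots (107 in strain 76) were left out, repeated probes were averaged, and each array was centred on its nuclear median (59133 nuclear and 363 mitochondrial probes). Segments were found by least-squares optimal partitioning (each change point cost 10 noise variances multiplied by the natural log of the probe number, with at least 10 probes a segment), called beyond 0.3 in size, and joined into regions of at least 20 kb over gaps under 20 kb. The level of a region is that of its longest called segment. Short runs were found in the same way, with at least 5 probes, on the difference from the median of the other 13 arrays. Segmentation was tested on simulated data. Strain 76, its stretches and the comparisons were chosen with earlier results of these data known. The design named genes at boundaries where a reference of the build exists, and otherwise positions only, which was followed here. With 1 array per strain, no region median was tested, and each is set beside the 13 other arrays. The number of arrays limits the precision. Both slides were scanned on 1 day. Python 3.11.15, numpy 2.4.6, numba 0.67.0 and limma 3.58.1 (normexp with an offset of 50, and loess) were used. The alternatives covered background correction, loess, centring, the deposited matrix, spot filters, subtraction of the WT14 array, comparison within the slide and the segmentation settings.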

Additional observations from a re-analysis of the deposited data

How the results depend on the processing

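The direction of all 3 region medians was kept under each of the 7 alternatives for the values. With normexp background correction the medians moved by more than the SD over the arrays without a change there, to 0.68 on chromosome VI, 0.68 on chromosome VIII and -0.85 on chromosome XII. The cause was not tested. The other 6 gave 0.50 to 0.55, 0.56 to 0.59 and -1.13 to -1.07. The difference from the median of the other arrays was 0.59, 0.60 and -1.05. It was 0.59, 0.58 and -1.06 against the 5 arrays of the same slide, and 0.59, 0.61 and -1.06 without the dim array of strain 81, an alternative chosen after seeing the data. Regions of at least 20 kb numbered 3 under 12 of the 13 alternatives. With only spots well above background there were 4, the added one beside the ribosomal RNA genes of chromosome XII. The WT14 array had 1 region under 5 of the 12 alternatives that could give one: on chromosome X with the series matrix, on XII beside the same genes with only spots well above background and with 5 probes a segment, and on VIII from 538876 to 562184 with 20 probes a segment and with a threshold of 0.2. The chromosome VIII region ended at 562184 instead of 525412 under normexp, a penalty factor of 20, a minimum of 20 probes and a threshold of 0.2. The p for mitochondrial DNA was between 0.143 and 0.667 over 9 alternatives, and the series matrix gave no value for it. No paired analysis was possible because each strain had 1 array, and for the same reason no replicate could be left out within a strain.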
